A study of Homo sapiens with 11 samples.

Results

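RNA of MDA-MB-231 cells depleted of the repressor BCL11A and the splicing regulator MBNL1 at the same time was compared with RNA of cells that received a non-targeting siRNA. The comparison was chosen as the block of the deposited expression table that sets the combined knockdown (siB/siM) beside the non-targeting control (siNS), and it holds 5 of the 11 libraries and 6700 of the 8085 genes of the series. To it were added the 146 cassette exons that the authors listed as sensitive to the combined knockdown. The siB/siM group (3 libraries) received SMARTpool siRNAs against BCL11A and against MBNL1 at 50 nM each, and the siNS group (2 libraries) received the non-targeting siRNA at 100 nM. All cells were harvested at 48 h. MDA-MB-231 is 1 epithelial breast cancer line, from a metastatic pleural effusion, so the values describe that line only. Libraries were made from total RNA with a stranded TruSeq kit after Ribo Zero Gold removal of ribosomal RNA. The labels do not say whether the libraries of a group come from separate cultures, so the p-values measure only how the libraries vary, which can be technical.

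BCL11A is a zinc finger transcription factor that recruits corepressor complexes such as NuRD to DNA, and it is best known for silencing the fetal globin genes in red blood cell precursors. MBNL1 is an RNA-binding protein that includes or skips alternative exons by binding short tetramers such as UGCU in or near them, and its sequestration by repeat RNA underlies splicing defects of myotonic dystrophy. The series title links BCL11A to metastasis of breast cancer, and the combined knockdown shows the RNA of the same cells with both factors targeted.

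MBNL1, the target that has values, was at 3.53, 3.65 and 3.56 RPKM (reads per kilobase of gene and mega-read of the library) in the siB/siM libraries, against 10.2 and 9.77 RPKM in the siNS libraries. All 3 siB/siM libraries lay below both siNS libraries, and MBNL1 fell by 1.26 ± 0.06 on the log2 scale (difference of group means of log2(RPKM + 1) ± standard error; limma, adjusted p = 6.26e-06). Its paralog MBNL2 was at 6.49, 6.16 and 6.54 RPKM in siB/siM and 7.73 and 7.23 RPKM in siNS. The MBNL2 difference of -0.20 ± 0.06 just passed the test (adjusted p = 0.0455) and did not pass without any 1 of the 5 libraries (highest adjusted p = 0.336), with a pseudocount of 0.1 or with a variance prior that follows the level. BCL11A is not among the 6700 genes, so these data do not show how far BCL11A itself was depleted.

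The effective library size behind the RPKM scale was 34.9, 32.7 and 32.4 M reads (mega-reads) in siB/siM and 20.04 and 29.9 M reads in siNS, so siNS library 1 was the shallowest. The groups separated along the first principal component, which held 92.9% of the variance of the 6700 genes. That share follows largely from the listing, since the authors listed only genes that passed their own test on these libraries. As markers of the line, VIM, the mesenchymal intermediate filament, was at 1057, 1089 and 1073 RPKM in siB/siM and 899 and 936 RPKM in siNS, and the epithelial keratins KRT8, KRT18 and KRT19 also had values. Of 12 immune marker genes only CD14, CSF1R and CD68 had values, and their summed level was 26.7 to 28.3 RPKM in siB/siM and 60.6 to 62.4 RPKM in siNS, nearly all of it CD68, a lysosomal protein. Of 13 endothelial and fibroblast markers 5 had values, with a summed level of 3.97 to 4.24 RPKM in siB/siM and 8.70 to 9.63 RPKM in siNS. Of 13 erythroid and globin genes only EPOR, the erythropoietin receptor, had values, and no globin gene did. A gene has no value here where the authors did not list it, so a missing value does not show that its RNA was absent or unchanged. In bulk RNA, fewer cells of a type and less RNA per cell cannot be told apart.

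The test was passed by 6017 of the 6700 genes (89.8%), of which 3546 rose (52.9%) and 2471 fell (36.9%) in siB/siM. A gene that passed at an adjusted p under 0.05 is called below. The authors listed a gene only if it had passed their own test on these libraries, so the high share of calls and the 6672 genes (99.6%) whose libraries did not overlap between the groups follow largely from the listing. Most differences were small. A log2 change of at least 1 was reached by 344 called genes (5.13%), of which 139 were higher (2.07%) and 205 lower (3.06%). A size of at least 2 was reached by 14 genes, all lower in siB/siM. The median of all 6700 changes was 0.24, and the shares of members called in the gene lists below are to be read against 52.9% higher and 36.9% lower.

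**Figure D1:**
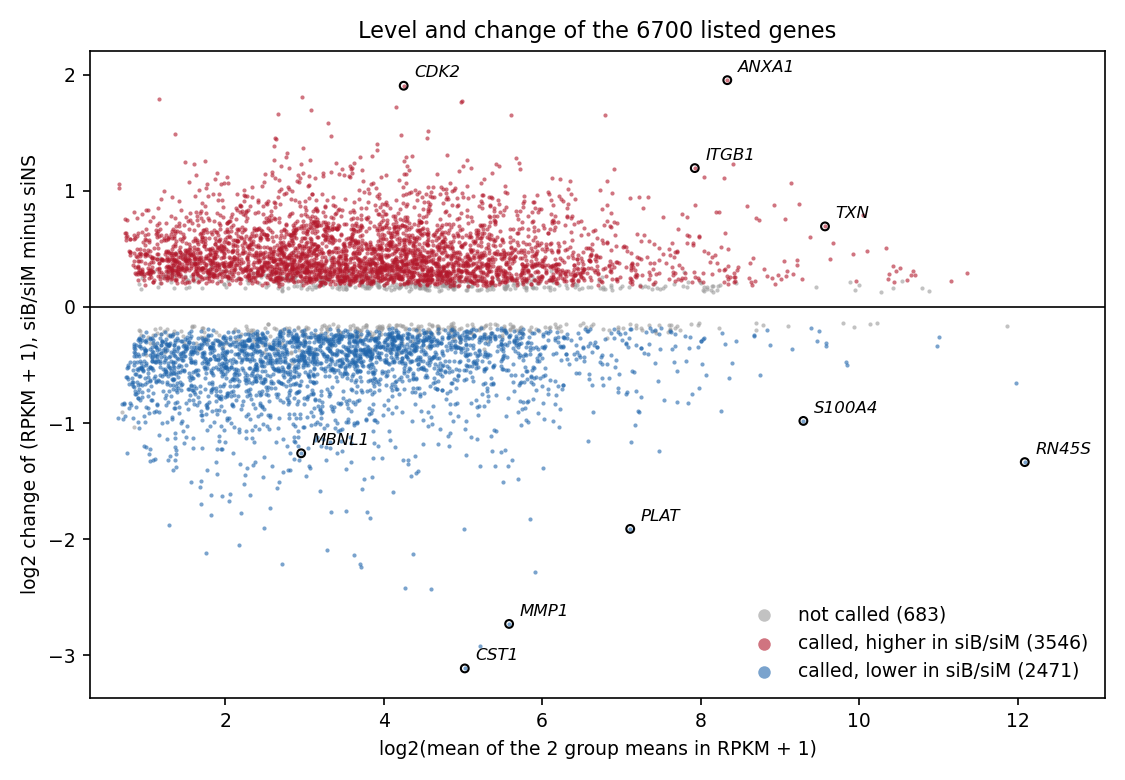
Level (log2 of the mean of both group means in RPKM + 1, horizontal axis) and change (log2 of RPKM + 1, siB/siM minus siNS, vertical axis) of the 6700 listed genes, each point a gene, red and blue for called genes and grey for the rest. Genes with small changes are absent around 0 because only genes passing the authors' test are listed. The largest falls, CST1 and MMP1, exceed the largest rise, ANXA1, in size.

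Cell cycle genes rose together. Of 32 genes of G2 phase and mitosis 31 had values, and all 31 rose, with a median log2 change of 0.84 against 0.24 for all genes. PLK1, the mitotic kinase that drives centrosome maturation and mitotic entry, was at 38.9, 42.7 and 44.5 RPKM in siB/siM and 17.3 and 18.8 RPKM in siNS, a log2 change of 1.17 ± 0.07 (adjusted p = 2.19e-05). Every siB/siM library lay far above both siNS libraries. WEE1, the kinase that holds CDK1 inactive until mitosis, had the largest rise of the list, with 8.24, 7.86 and 7.59 RPKM in siB/siM and 2.58 and 2.25 RPKM in siNS (1.38 ± 0.07, adjusted p = 8.59e-06). CENPF, a kinetochore protein, was at 63.3, 55.8 and 57.1 RPKM in siB/siM and 24.3 and 24.6 RPKM in siNS (1.23 ± 0.07). The spindle checkpoint kinase BUB1B (1.22), the hyaluronan-mediated motility receptor HMMR (1.11) and the chromosomal passenger kinase AURKB (1.04) complete the 6 members with the largest rises. FOXM1, a transcription factor of these genes, rose less, to 23.8, 24.8 and 22.9 RPKM in siB/siM, against 16.3 and 16.1 RPKM in siNS (0.53 ± 0.06, adjusted p = 0.000317). The smallest rise was that of the survivin gene BIRC5 (0.49). All 31 remained called under each scaling tried and without each library in turn.

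Promoters of G2/M genes often carry a CHR element (TTTGAA), the site of the DREAM and MuvB complexes, and CCAAT boxes bound by NF-Y. Of the 31 genes 24 matched an entry in RefSeq (GRCh38.p14), and 3 promoters that hold both motifs are shown, 250 bases before the start of the gene, 5′ to 3′ on the strand of the gene, with TTTGAA and CCAAT on either strand in capitals.
CDC20 promoter, chr1:43358731-43358980, plus strand: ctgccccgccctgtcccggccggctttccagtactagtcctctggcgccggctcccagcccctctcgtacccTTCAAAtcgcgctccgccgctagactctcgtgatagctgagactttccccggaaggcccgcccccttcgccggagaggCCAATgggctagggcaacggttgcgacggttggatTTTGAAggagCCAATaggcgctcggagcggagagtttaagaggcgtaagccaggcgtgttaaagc
CENPA promoter, chr2:26785806-26786055, plus strand: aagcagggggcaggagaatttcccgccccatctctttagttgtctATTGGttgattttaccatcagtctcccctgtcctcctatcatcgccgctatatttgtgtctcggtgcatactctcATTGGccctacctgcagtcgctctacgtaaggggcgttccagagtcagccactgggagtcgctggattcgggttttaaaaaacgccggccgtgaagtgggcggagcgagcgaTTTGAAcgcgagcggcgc
PLK1 promoter, chr16:23678639-23678888, plus strand: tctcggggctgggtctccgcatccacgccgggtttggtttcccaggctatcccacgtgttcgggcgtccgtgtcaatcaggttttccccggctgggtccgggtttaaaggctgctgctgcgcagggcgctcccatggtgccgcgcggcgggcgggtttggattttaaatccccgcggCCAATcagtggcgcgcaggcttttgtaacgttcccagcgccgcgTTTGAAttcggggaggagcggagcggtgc
The CHR letters were found in 12 of the 24 promoters (50.0%), against 9.49% of 5404 promoters of the listed genes and 13.6% of all 27305 promoters. CCAAT was found in 20 of the 24 (83.3%), against 36.5% of the listed genes' promoters and 33.0% of all. A match is a run of letters and not a measured binding site. Among these 3, CDC20, the activator of the anaphase-promoting complex, averaged 181 ± 8.15 RPKM in siB/siM and 93.9 ± 2.04 RPKM in siNS (SD, n = 3 and 2; log2 change 0.94 ± 0.06), and CENPA, the centromeric histone, was at 21.2, 19.9 and 18.8 RPKM in siB/siM and 9.61 and 11.1 RPKM in siNS (0.88 ± 0.08).

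Genes of S phase entry and DNA replication rose as well. Of 41 genes 40 had values, 39 rose and 1 fell, with a median log2 change of 0.70. CDK2, the partner of cyclins E and A at the start of S phase, was at 28.99, 29.79 and 28.47 RPKM in siB/siM, against 6.44 and 7.68 RPKM in siNS (1.90 ± 0.08, adjusted p = 4.77e-06). CDK6, the partner of D-type cyclins, was at 14.3, 13.4 and 13.6 RPKM in siB/siM, against 3.93 and 3.90 RPKM in siNS (1.59 ± 0.06). The member that fell was CCND1, cyclin D1 itself, at 96.6, 98.1 and 102 RPKM in siB/siM and 141 and 142 RPKM in siNS (-0.51 ± 0.06, adjusted p = 0.000286). Cyclin D1 and its kinase partner thus moved in opposite directions, and CDK4, the other partner, rose (0.67). The other largest rises were in the GINS helicase subunits GINS2 (1.21) and GINS1 (1.19), the clamp loader subunit RFC4 (1.21) and the origin recognition subunit ORC6 (1.16). The E2F-type letters TTTGGCGC were found in 5 of 32 matched promoters (15.6%, against 1.07% of the listed genes) and TTTCGCGC in 3 (9.38%, against 1.05%), whereas TTTGAA was found in 1 (3.12%).

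All 10 replication-dependent histone genes with values (of 16) rose, with a median of 0.76. HIST1H3B, a histone H3 gene, was at 757, 771 and 767 RPKM in siB/siM and 362 and 368 RPKM in siNS (1.07 ± 0.06, adjusted p = 9.99e-06). Histone genes are near-identical copies, so reads could be split among them, and HIST2H3D (1.65), one of the largest rises of all genes, is uncertain for that reason. Of 22 DNA repair genes 20 had values and 18 rose (median 0.66). They include the exonuclease EXO1 (1.00), BRCA2 (0.80) and BRCA1 (0.79). The remaining pair, XRCC5 (0.20) and TP53BP1 (-0.16), was not called. Among 5 measured CDK inhibitor and RB family genes RB1 (0.56), RBL1 (0.67) and CDKN1B (0.31) rose, and CDKN1C (-0.71) and CDKN2D (-0.27) fell. The call of CDKN1B was lost without siNS library 1 (adjusted p = 0.061) and that of CDKN2D without siNS library 2 (adjusted p = 0.083). MYC, a proliferation-driving transcription factor, was at 55.6, 55.0 and 59.0 RPKM in siB/siM and 32.4 and 31.9 RPKM in siNS (0.79 ± 0.06).

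**Figure D2:**
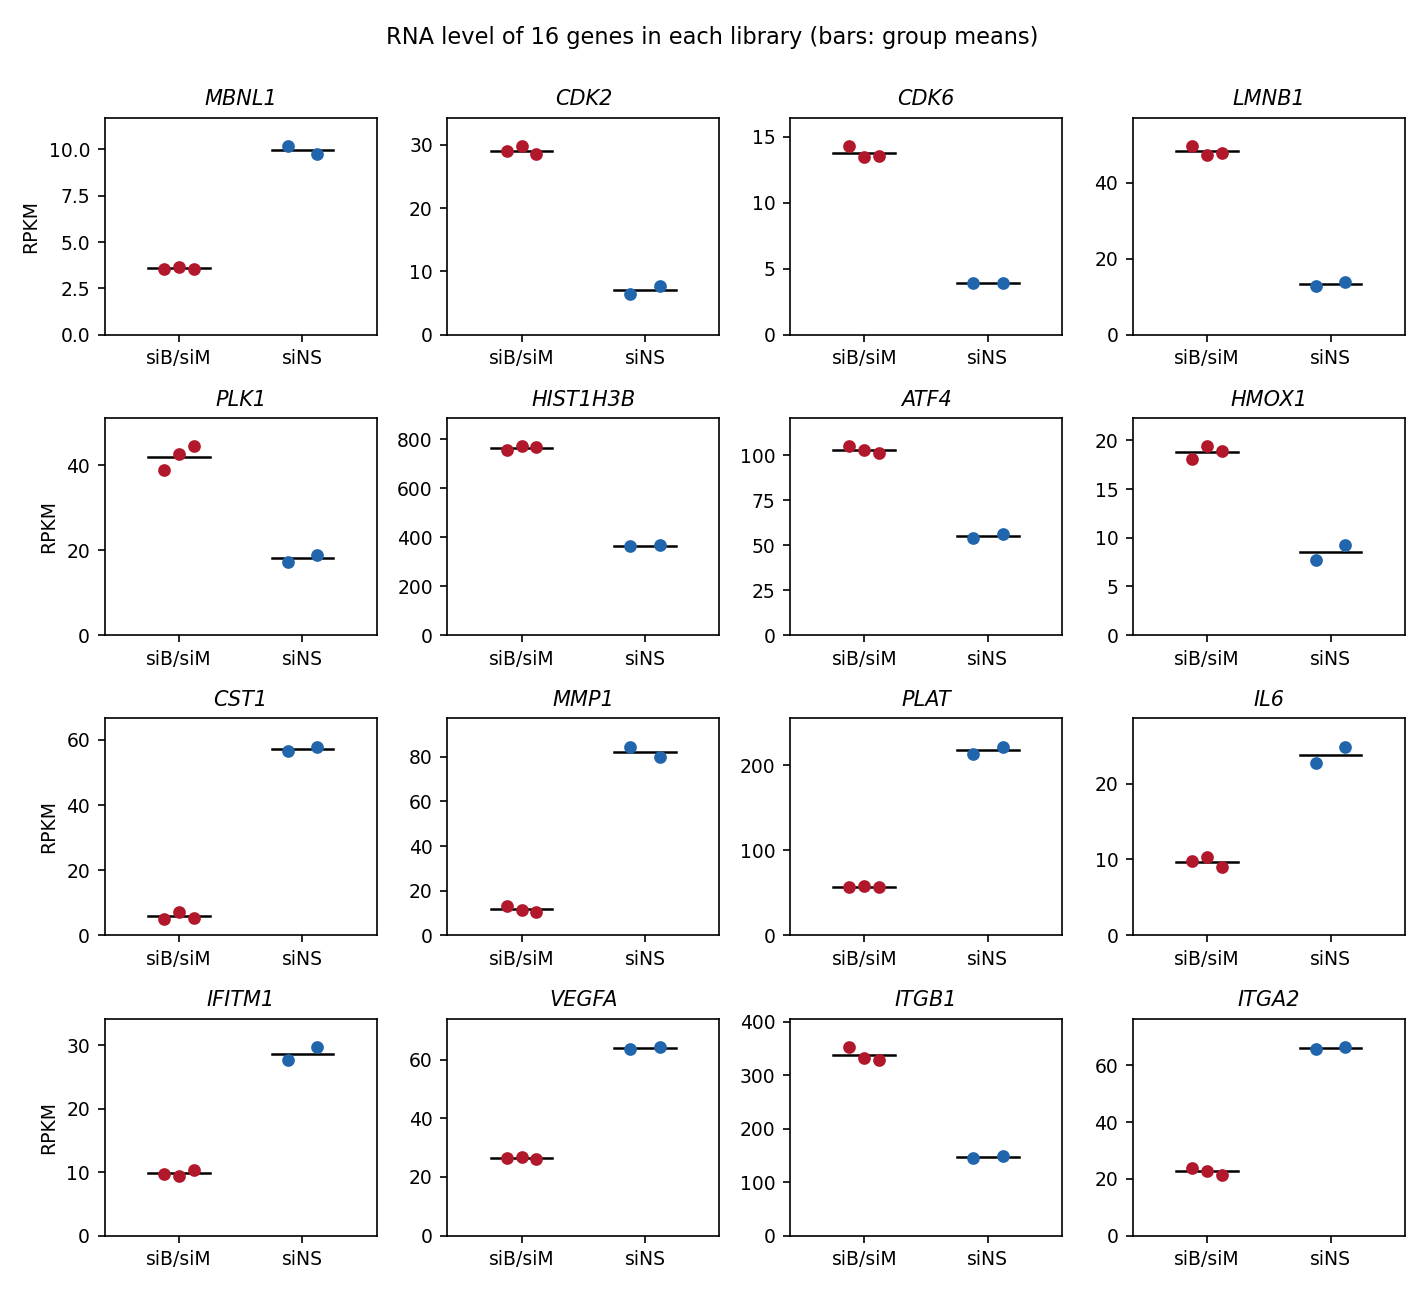
RNA level in RPKM (vertical axes, from 0) of 16 genes in each siB/siM library (red, left) and each siNS library (blue, right), with the group mean as a bar. In all 16 panels the libraries of the groups do not overlap, as in 99.6% of the 6700 listed genes. CDK2, for example, is at 28.5 to 29.8 RPKM in siB/siM and 6.44 to 7.68 RPKM in siNS.

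The largest rise of all was that of ANXA1, an annexin that binds membrane phospholipids, at 532, 502 and 504 RPKM in siB/siM, against 129 and 134 RPKM in siNS (1.95 ± 0.06, adjusted p = 2.78e-06), a 3.89-fold higher mean. LMNB1, lamin B1 of the nuclear envelope, was at 49.7, 47.3 and 47.9 RPKM in siB/siM and 12.82 and 14.01 RPKM in siNS (1.77 ± 0.06). CENPQ, a kinetochore protein, was at 28.07, 25.97 and 25.39 RPKM in siB/siM and 7.48 and 7.14 RPKM in siNS (1.72 ± 0.07). In each of these the gap between the groups was far wider than the spread within a group. Non-overlap of the libraries was a condition for naming a gene here, and 99.6% of the listed genes meet it. The other genes with the largest rises have diverse roles. They were OTUD6B, a deubiquitinase (1.81), RPS27L, a ribosomal protein paralog (1.76), TTPAL, a tocopherol transfer protein relative (1.66), and PPME1, the methylesterase of protein phosphatases (1.65). With smaller rises came GEMIN5, which loads small nuclear RNAs on the SMN complex (1.52), PRMT3, an arginine methyltransferase (1.48), YRDC, a tRNA modification enzyme (1.45), POLR3G, a subunit of RNA polymerase III (1.45), and TAGLN, an actin-binding protein of smooth muscle (1.45).

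The largest fall was that of CST1. CST1, a secreted cystatin that inhibits cysteine proteases, was at 4.97, 7.20 and 5.25 RPKM in siB/siM, against 56.7 and 57.9 RPKM in siNS (-3.11 ± 0.12, adjusted p = 4.77e-06), a 9.86-fold lower mean. Its close paralog CST4 was at 7.63, 8.43 and 7.10 RPKM in siB/siM, against 63.5 and 66.4 RPKM in siNS (-2.92 ± 0.08). Reads could be shared between these cystatins, and likewise between PRSS2 (-2.42), a trypsinogen, and its paralogs. MMP1, the interstitial collagenase, was at 12.9, 11.2 and 10.6 RPKM in siB/siM, against 84.5 and 80.1 RPKM in siNS (-2.73 ± 0.08, adjusted p = 2.78e-06). No siB/siM library of these genes came near a siNS library, and for the largest falls too non-overlap was a condition for naming a gene. The list goes on with SPINK4, a small serine protease inhibitor (-2.28), LAPTM5, a transmembrane protein of lysosomes (-2.42), LOC100288077, an uncharacterised locus (-2.22), SERPINA1, the alpha-1 antitrypsin gene (-2.21), IL24, a cytokine (-2.13), and LPXN, the focal adhesion adaptor leupaxin (-2.13). ST3GAL5, the GM3 ganglioside synthase (-2.10), the secreted ribonuclease RNASE1 (-2.05), KIAA1199, a hyaluronan-binding protein (-1.91), and AQP1, a water channel (-1.90), fell by similar sizes.

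Matrix-degrading enzymes and their inhibitors fell as a group. Of 25 genes 15 had values, 13 fell and 2 rose, with a median of -0.75. PLAT, tissue plasminogen activator, was at 56.8, 57.5 and 56.9 RPKM in siB/siM and 214 and 222 RPKM in siNS (-1.91 ± 0.06, adjusted p = 2.78e-06). PLAU, urokinase, was at 174, 180.3 and 173 RPKM in siB/siM and 299 and 294 RPKM in siNS (-0.75 ± 0.06), and its receptor PLAUR also fell (-0.71). The membrane collagenase MMP14 was at 99.0, 104 and 106 RPKM in siB/siM and 194 and 195 RPKM in siNS (-0.91 ± 0.06). Proteases and inhibitors moved the same way, since the metalloproteinase inhibitors TIMP3 (-1.25), TIMP1 (-0.75) and TIMP2 (-0.68) and the plasminogen activator inhibitor SERPINB2 (-0.99) fell too. ADAM8, a membrane metalloproteinase, fell (-1.37), and the members that rose were ADAM9 (0.33) and the protease nexin SERPINE2 (0.31).

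Of 24 integrin and focal adhesion genes 15 had values, 11 fell and 3 rose (median -0.56). ITGA2, the collagen-binding alpha 2 chain, was at 23.97, 22.70 and 21.28 RPKM in siB/siM and 65.6 and 66.5 RPKM in siNS (-1.505 ± 0.07, adjusted p = 6.17e-06). Its beta partner ITGB1 went the other way, at 352, 332 and 328 RPKM in siB/siM, against 145 and 149 RPKM in siNS (1.195 ± 0.06, adjusted p = 9.00e-06). Beta chains did not move as a group, since ITGB8 (-0.96), ITGB4 (-0.65) and ITGB5 (-0.44) fell and ITGB3 rose (0.77). The adhesion kinase PTK2 was at 34.8, 33.4 and 34.3 RPKM in siB/siM and 66.6 and 73.7 RPKM in siNS (-1.01 ± 0.07), and the docking protein NEDD9 fell (-0.999). Among 15 measured collagen, laminin and matrix genes 11 fell and 4 rose. The basement membrane chains split, with COL17A1 (-0.90) and LAMB1 (-0.51) lower and COL4A1 (0.62), COL4A2 (0.32) and LAMC1 (0.28) higher. Without siNS library 1 the calls of COL4A2 (adjusted p = 0.0656) and LAMC1 (adjusted p = 0.0843) were lost, which left 2 rises, and both were also lost with quantile scaling (highest adjusted p = 0.101).

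Inflammatory and interferon genes fell. Of 29 NF-kB and inflammatory genes 15 had values, 13 fell and 1, LIF, rose (0.31). The call of LIF was lost without either siNS library and without siB/siM library 1 or 2 (highest adjusted p = 0.119), and with library sizes that leave out RN45S, a ribosomal RNA precursor described below (adjusted p = 0.0591). IL6 was at 9.80, 10.4 and 8.96 RPKM in siB/siM and 22.7 and 24.9 RPKM in siNS (-1.21 ± 0.08, adjusted p = 2.13e-05). IL1B was low in all libraries, at 0.439, 0.328 and 0.379 RPKM in siB/siM and 3.06 and 2.31 RPKM in siNS (-1.41 ± 0.09), where the pseudocount of 1 understates the fold. ICAM1, the leukocyte adhesion molecule, was at 15.1, 15.3 and 15.3 RPKM in siB/siM and 30.2 and 33.0 RPKM in siNS (-1.01 ± 0.06). The cyclooxygenase PTGS2 (-0.99), IL8 (-0.75) and IL1A (-0.61) fell as well, and NFKBIA, the feedback inhibitor of the pathway, was not called (-0.24).

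Of 35 genes of the type I interferon response 23 had values, and 22 of them fell, with a median of -0.54. IFITM1, a membrane protein that blocks virus entry, was at 9.71, 9.42 and 10.3 RPKM in siB/siM and 27.7 and 29.8 RPKM in siNS (-1.46 ± 0.06, adjusted p = 6.17e-06). IRF9, the DNA-binding part of the complex that turns these genes on, was at 6.95, 6.64 and 5.96 RPKM in siB/siM and 16.1 and 14.5 RPKM in siNS (-1.12 ± 0.08). Its partner STAT2 fell as well (-0.53). IFI6, a mitochondrial survival protein, was at 2.87, 3.52 and 4.31 RPKM in siB/siM and 9.57 and 8.75 RPKM in siNS (-1.17 ± 0.12). ISG15, the ubiquitin-like modifier, fell less, to 126, 135 and 140.1 RPKM in siB/siM, against 174 and 179.9 RPKM in siNS (-0.40 ± 0.07, adjusted p = 0.00206). HLA-C was not called (-0.16). With each library left out in turn 18 to 21 members were called lower.

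Interferon-induced promoters hold an ISRE, a repeat of GAAA letters bound by a complex that holds IRF9. Of the 23 genes 16 matched a RefSeq promoter, and 3 promoters of genes that fell by different sizes are shown, again 250 bases before the start, with GAAA, any pair of bases and GAAA in capitals.
IFI6 promoter, chr1:27672193-27672442, minus strand: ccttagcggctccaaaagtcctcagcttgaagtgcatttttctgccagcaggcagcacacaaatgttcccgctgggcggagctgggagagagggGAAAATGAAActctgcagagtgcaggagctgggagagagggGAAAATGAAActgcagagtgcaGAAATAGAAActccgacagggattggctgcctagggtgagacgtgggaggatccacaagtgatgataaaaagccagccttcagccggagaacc
BST2 promoter, chr19:17405631-17405880, minus strand: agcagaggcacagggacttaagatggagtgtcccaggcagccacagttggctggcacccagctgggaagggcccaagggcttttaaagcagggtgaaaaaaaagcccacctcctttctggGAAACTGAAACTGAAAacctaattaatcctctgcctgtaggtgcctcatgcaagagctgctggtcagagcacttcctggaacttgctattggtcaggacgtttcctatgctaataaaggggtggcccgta
ISG15 promoter, chr1:1013247-1013496, plus strand: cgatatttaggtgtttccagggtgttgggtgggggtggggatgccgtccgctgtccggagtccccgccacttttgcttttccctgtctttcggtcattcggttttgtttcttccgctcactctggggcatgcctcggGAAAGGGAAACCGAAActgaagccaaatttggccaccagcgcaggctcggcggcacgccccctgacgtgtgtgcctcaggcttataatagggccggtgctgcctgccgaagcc
This pattern, searched on both strands with overlapping matches joined, were found in 8 of the 16 promoters (50.0%), against 2.63% of the listed genes' promoters and 3.07% of all. BST2, the tethering factor of budding viruses, was at 111, 105 and 109 RPKM in siB/siM and 176 and 184 RPKM in siNS (-0.73 ± 0.06).

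Genes of the hypoxia response fell in siB/siM. Of 20 genes 16 had values, 14 fell and 2 rose (median -0.60). VEGFA, the angiogenic growth factor, was at 26.6, 26.9 and 26.2 RPKM in siB/siM and 63.6 and 64.3 RPKM in siNS (-1.24 ± 0.06, adjusted p = 6.26e-06). SLC2A3, a glucose transporter, was at 5.49, 5.18 and 5.29 RPKM in siB/siM and 15.30 and 16.01 RPKM in siNS (-1.40 ± 0.06). CA9, the tumour carbonic anhydrase, was at 1.99, 3.86 and 2.59 RPKM in siB/siM and 5.67 and 7.69 RPKM in siNS (-1.03 ± 0.19, adjusted p = 0.00392). The spread of CA9 was wide, and its groups did not overlap, as in 99.6% of all listed genes. The members that rose were ADM, adrenomedullin, at 23.97 to 24.49 RPKM in siB/siM and 14.9 and 16.5 RPKM in siNS (0.59 ± 0.06), and EPAS1, the HIF-2 alpha subunit (0.26), a call lost under each of the 3 other scalings tried and without siNS library 1 or 2 or siB/siM library 1 or 3 (highest adjusted p = 0.159). The core letters ACGTG were found in 6 of 12 matched promoters (50.0%), against 24.1% of the listed genes. In glycolysis 10 of 15 measured genes fell and none was called higher. The largest falls were in ALDOC (-1.36) and ENO2 (-1.03), isoforms best known from neurons, and in the regulator PFKFB4 (-0.99), while the housekeeping members GAPDH (-0.26) and LDHA (-0.29) fell little and PGK1, ENO1 and TPI1 were not called. The calls of GAPDH (adjusted p = 0.114) and LDHA (adjusted p = 0.0695) were lost without siNS library 2, and that of GAPDH also with quantile scaling (adjusted p = 0.238).

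**Figure D3:**
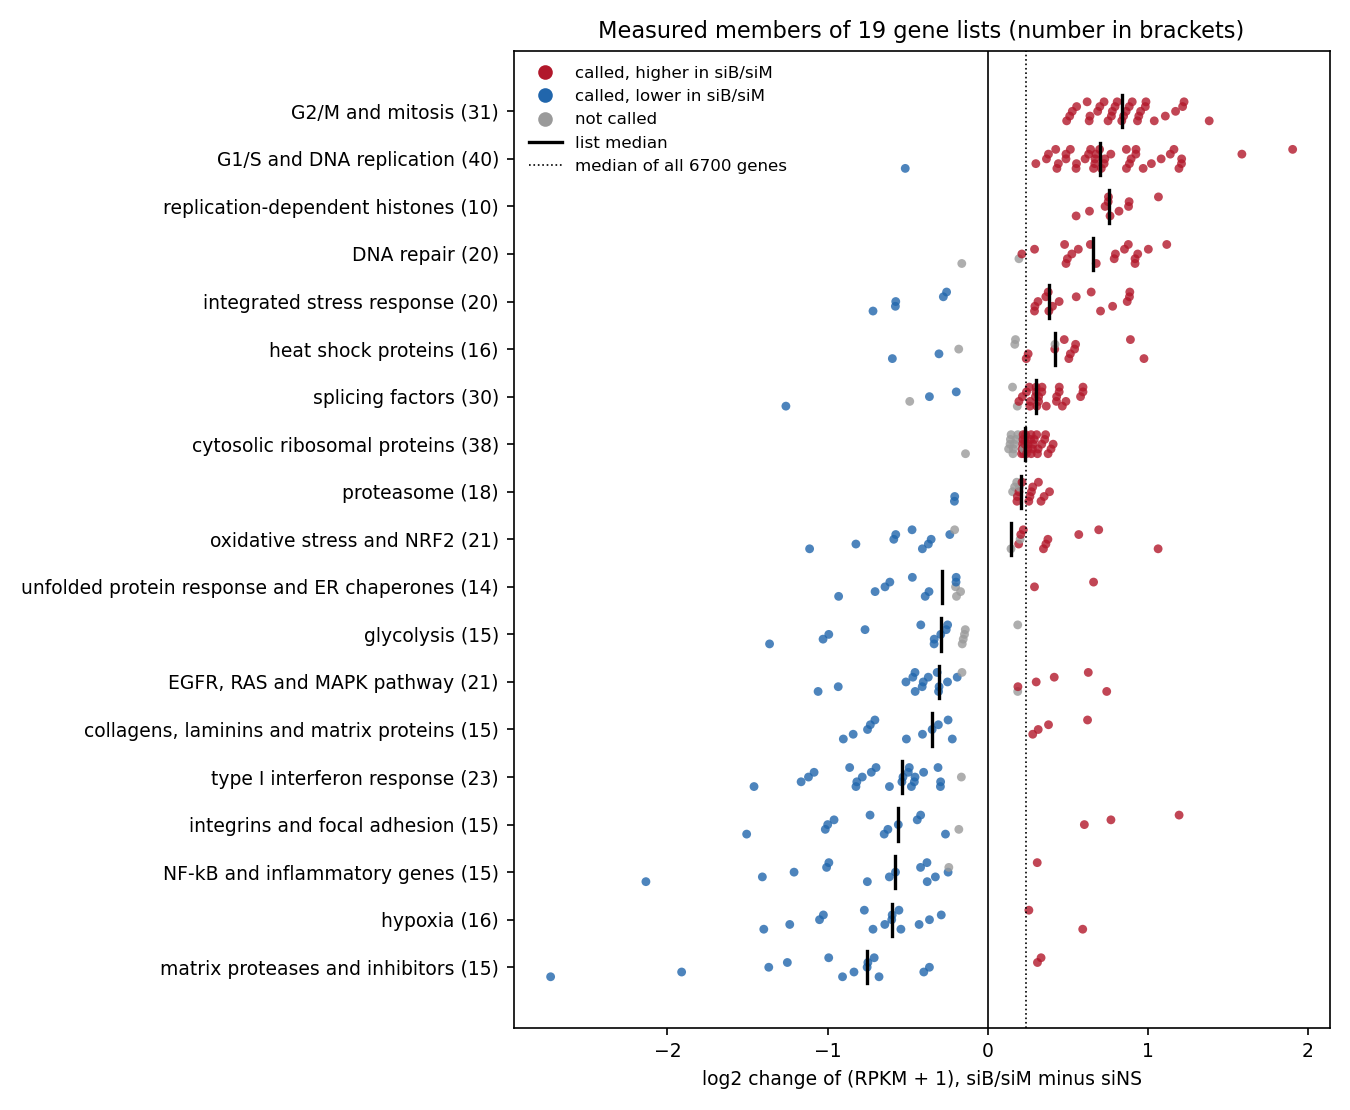
Log2 change (siB/siM minus siNS, horizontal axis) of each measured member of 19 gene lists (rows, number of measured members in brackets), with the list median as a black bar and the median of all genes (0.24) as a dotted line. All 31 G2/M genes lie right of 0 and all 23 interferon genes left of it, and the ribosomal protein genes form a tight cluster at the dotted line.

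The 4 stress lists (integrated stress response, unfolded protein response and ER chaperones, heat shock proteins, oxidative stress and NRF2) hold 109 genes, of which 70 had values, 36 rose, 24 fell and 10 were not called. They did not move one way. In the integrated stress response 15 of 20 measured genes rose and 5 fell (median 0.38). ATF4, its central transcription factor, was at 105, 103 and 101 RPKM in siB/siM, against 54.1 and 56.3 RPKM in siNS (0.89 ± 0.06, adjusted p = 2.34e-05). EIF2AK3, the ER kinase PERK that acts upstream of ATF4, was at 7.36, 7.66 and 7.05 RPKM in siB/siM and 3.20 and 3.87 RPKM in siNS (0.89 ± 0.08). PPP1R15A, the phosphatase subunit that ends the response, was at 43.8, 47.9 and 48.7 RPKM in siB/siM and 25.6 and 24.6 RPKM in siNS (0.87 ± 0.07). These 3 genes of induction and feedback rose by about the same size. The target genes DDIT3 (0.65), MTHFD2 (0.78) and SLC3A2 (0.70) rose, whereas the cystine transporter SLC7A11 (-0.57), VLDLR (-0.58) and DDIT4 (-0.72), an mTOR inhibitor also counted among the hypoxia genes, fell. The composite C/EBP-ATF letters TTGCATCA were in none of 17 matched promoters and in 0.50% of those of the listed genes.

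The ER branch moved against this. Of 14 measured genes of the unfolded protein response and ER chaperones 9 fell and 2 rose (median -0.28). HSPA5, the main ER chaperone BiP, was at 124, 153 and 135 RPKM in siB/siM and 229.7 and 199 RPKM in siNS (-0.64 ± 0.10, adjusted p = 0.00161). The calcium-binding chaperone CALR was at 744, 806 and 748 RPKM in siB/siM and 1052 and 1070.0 RPKM in siNS (-0.47 ± 0.06), and SEC24D, a coat protein of ER export vesicles, fell most (-0.93). The members that rose were MANF, a secreted ER stress protein, at 86.3, 88.3 and 83.1 RPKM in siB/siM and 54.8 and 53.1 RPKM in siNS (0.66 ± 0.06), and XBP1 (0.29), whose call was lost with quantile scaling (adjusted p = 0.141) or when siNS library 1 was left out (adjusted p = 0.131). Of 16 measured heat shock genes 10 rose and 2 fell, where 52.9% of all genes rose. The largest rises were in HSPA4L (0.98) and CHORDC1 (0.89), a cochaperone of HSP90. The fall of DNAJB4 (-0.30) was lost without siNS library 1 or siB/siM library 2 or 3 (highest adjusted p = 0.254), which left HSPB8 (-0.60). With quantile scaling, and also with library sizes that leave out RN45S, 8 of the 16 rose and 3 fell. The abundant HSPA8 was at 1534, 1534 and 1488 RPKM in siB/siM and 1048 and 1090.0 RPKM in siNS (0.51 ± 0.06), and its regulator HSF1 rose too (0.54).

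Of 21 measured oxidative stress genes 9 were called higher and 9 lower. HMOX1, heme oxygenase 1, was at 18.1, 19.4 and 18.9 RPKM in siB/siM and 7.72 and 9.27 RPKM in siNS (1.06 ± 0.08, adjusted p = 4.24e-05). TXN, thioredoxin, was at 979.7, 938 and 898 RPKM in siB/siM and 582 and 577 RPKM in siNS (0.69 ± 0.06). The glutathione synthesis subunit GCLM also rose (0.57). The metallothioneins fell, with MT1X at 23.98, 25.69 and 25.15 RPKM in siB/siM and 54.9 and 55.2 RPKM in siNS (-1.11 ± 0.06), followed by MT1E (-0.82) and MT2A (-0.59). The metallothionein genes are near-identical, and reads could be shared among them. With quantile scaling 5 of the 21 were called higher and 10 lower, and the median of 0.15 became 0.00.

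Of the 70 measured stress genes 9 had values in the siB/siM block alone, since they passed the authors' test with the combined knockdown and not with either single one, and their changes were small. ATF3, an early stress transcription factor, was at 2.49, 2.34 and 2.05 RPKM in siB/siM and 1.34 and 1.73 RPKM in siNS (0.38 ± 0.09, adjusted p = 0.0115). KEAP1, the adaptor that has NRF2 degraded, was at 36.1, 37.2 and 36.8 RPKM in siB/siM and 31.8 and 31.6 RPKM in siNS (0.21 ± 0.06, adjusted p = 0.0249). SRXN1, sulfiredoxin, was at 49.3, 49.6 and 49.7 RPKM in siB/siM and 41.8 and 42.9 RPKM in siNS (0.22 ± 0.06, adjusted p = 0.0173). The groups of these genes did not overlap but lay close. TALDO1, a pentose phosphate enzyme, was at 174, 185 and 178 RPKM in siB/siM and 157 and 156 RPKM in siNS (0.19 ± 0.06, adjusted p = 0.0421). All 4 of these calls were lost without siNS library 1, and those of KEAP1, SRXN1 and TALDO1 also without siNS library 2 or siB/siM library 2 or 3, with quantile scaling and with library sizes that leave out RN45S. Centring the libraries on their median also ended the calls of KEAP1 and TALDO1. Over the left-out libraries and the scalings the highest adjusted p was 0.106 for ATF3, 0.597 for KEAP1, 0.159 for SRXN1 and 0.274 for TALDO1. The other 5 were not called. SOD1, the cytosolic superoxide dismutase, was at 292, 267 and 262 RPKM in siB/siM and 236 and 238 RPKM in siNS (0.20 ± 0.07, adjusted p = 0.0584). HSPA4, an HSP110-type chaperone, was at 176, 166 and 167 RPKM in siB/siM and 152 and 149 RPKM in siNS (0.17 ± 0.06, adjusted p = 0.0662). DNAJB1, the HSP40 cochaperone, was at 55.8, 57.9 and 56.6 RPKM in siB/siM and 51.3 and 49.4 RPKM in siNS (0.17 ± 0.06, adjusted p = 0.0674). Of these 5 only DERL2 was on the lower side. DERL2, an ER dislocation channel subunit, was at 56.1, 50.7 and 49.6 RPKM in siB/siM and 60.5 and 59.0 RPKM in siNS (-0.20 ± 0.07, adjusted p = 0.0826). SQSTM1, the autophagy receptor p62, was at 69.5, 72.9 and 71.5 RPKM in siB/siM and 63.6 and 65.2 RPKM in siNS (0.15 ± 0.06, adjusted p = 0.12). That a gene has values in one block alone is no test of a difference between knockdowns, and such a test was not made.

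**Figure D4:**
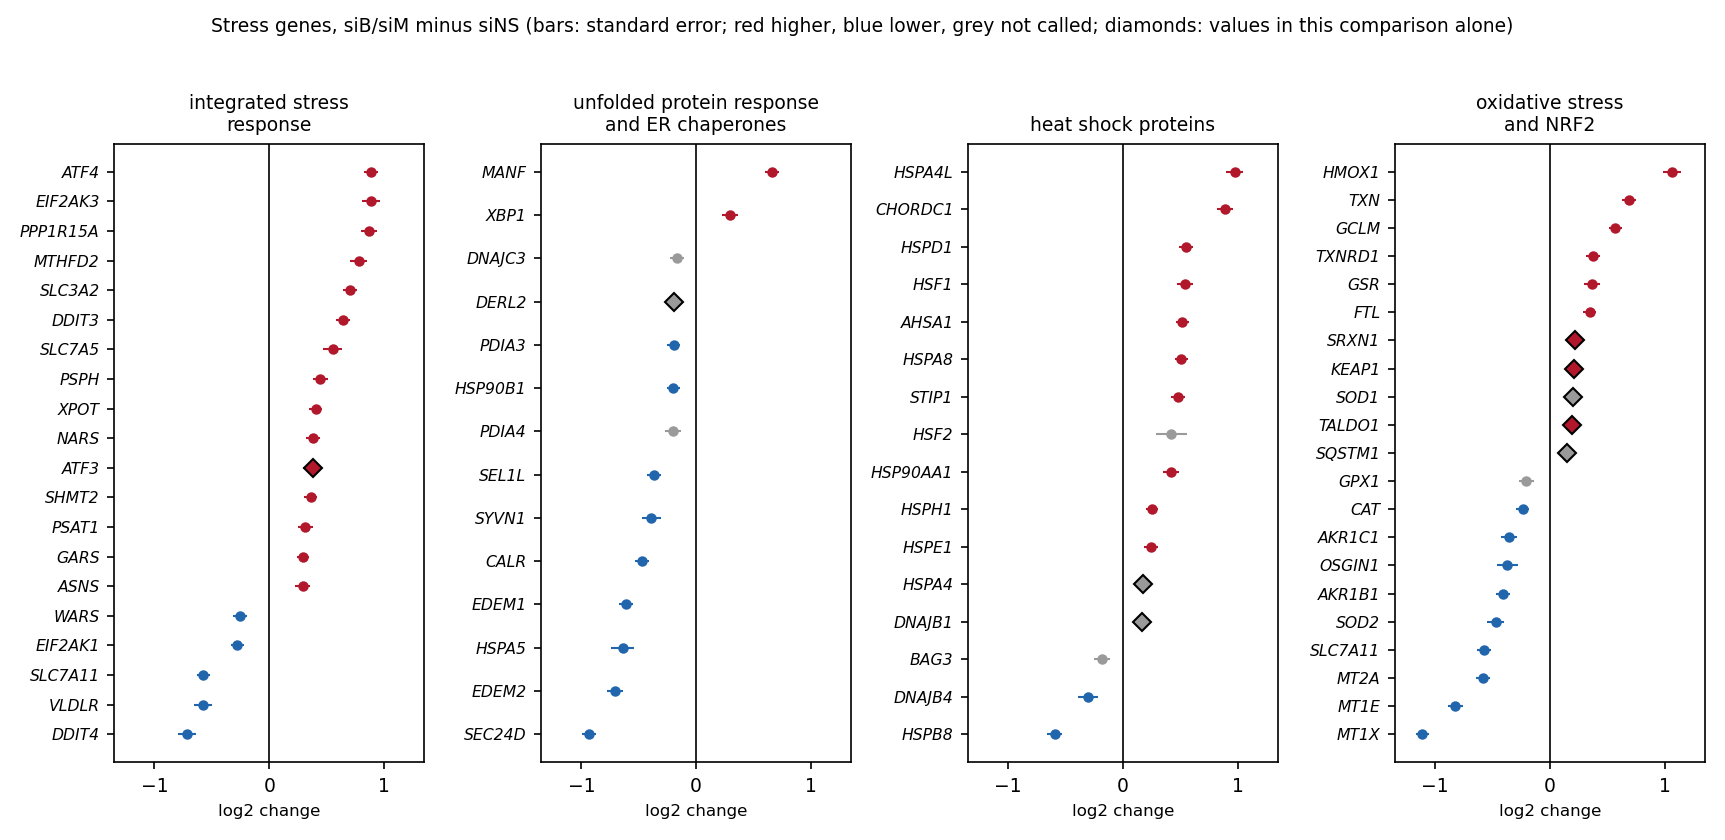
Log2 change (siB/siM minus siNS, horizontal axis) with its standard error for each measured gene of the 4 stress lists (panels), red for called higher, blue for called lower and grey for not called, and diamonds for the 9 genes with values in this comparison alone. The diamonds lie between -0.20 and 0.38, while the other members span -1.11 to 1.06.

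Among the signalling pathways, the YAP partners TEAD1 and TEAD4 had the largest rises. TEAD1 was at 17.6, 17.5 and 17.2 RPKM in siB/siM and 7.05 and 7.18 RPKM in siNS (1.18 ± 0.06, adjusted p = 7.34e-06). TEAD4 was at 16.3, 17.2 and 15.5 RPKM in siB/siM and 6.32 and 6.39 RPKM in siNS (1.24 ± 0.06). Of the coactivators YAP1 rose (0.42) and its relative WWTR1 (TAZ) fell (-0.84), and of the target genes CYR61 rose (0.75), and CTGF (0.24) and ANKRD1 (0.17) were not called. The call of CYR61 was lost without siNS library 2 or siB/siM library 2 or 3, with quantile scaling, with sizes that leave out RN45S, with pseudocounts of 0.1 and 0.5 and with a variance prior that follows the level (highest adjusted p = 0.284). Of 16 measured genes of that pathway 9 rose and 2 fell, but 5 rose without siB/siM library 2 or 3 and 5 rose and 3 fell with quantile scaling. With sizes that leave out RN45S 5 rose and 4 fell, and with centred libraries 8 rose and 4 fell. In the MAPK pathway 14 of 21 measured genes fell and 5 rose. DUSP6, an ERK phosphatase, was at 27.5, 26.1 and 25.6 RPKM in siB/siM and 55.9 and 56.2 RPKM in siNS (-1.06 ± 0.06, adjusted p = 1.32e-05). In the TGF-beta pathway 10 of 15 fell and 4 rose. The latency protein LTBP1 (-1.30), the ligand TGFB1 (-0.99) and the receptors TGFBR1 (-0.86) and TGFBR2 (-0.63) fell, and the targets ID3 (1.03) and ID1 (0.64) and the activin binder FST (0.77) rose.

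Of 17 measured epithelial genes 11 fell and 5 rose, or 3 without siNS library 1. The junction protein JUP (-1.30), the protease ST14 (-0.90) and KRT19, at 209, 214 and 214 RPKM in siB/siM and 384 and 410.3 RPKM in siNS (-0.90 ± 0.06), were lower. KRT8 (0.38) and the desmosomal protein DSP (0.66) were higher. Of 10 measured mesenchymal genes 5 fell and 4 rose, and the rises numbered 2 without any 1 of siNS libraries 1 and 2 and siB/siM libraries 2 and 3. With quantile scaling 2 rose and 6 fell, and with sizes that leave out RN45S 1 rose and 6 fell. S100A4, a calcium-binding protein linked to motility, was at 419.5, 449 and 398 RPKM in siB/siM and 796 and 872 RPKM in siNS (-0.98 ± 0.07, adjusted p = 4.33e-05), and the cadherins CDH11 (-0.79) and CDH2 (-0.40) fell. VIM rose slightly (0.23 ± 0.06, adjusted p = 0.0183), a call lost without siNS library 1 or 2 or siB/siM library 2 or 3, with quantile scaling and with sizes that leave out RN45S (highest adjusted p = 0.194). The transcription factors SOX4 (-1.63) and SPDEF (-1.76) had the largest falls of the basal and luminal lists. The immune marker CD68 itself fell to 25.66, 26.99 and 27.24 RPKM in siB/siM, against 56.1 and 57.4 RPKM in siNS (-1.06 ± 0.06).

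Of the 6700 genes 1411 had values in this block alone, and 940 of them rose, 148 fell and 323 were not called. Their median change was 0.26, against 0.24 for all genes and 0.21 for genes with values in another block too. Their changes ranged from -2.115 to 1.695, and the calls depended on library and scale. Without siNS library 1, 446 rose and 66 fell, without siNS library 2, 598 rose and 90 fell, and without siB/siM library 3, 84 fell. With quantile scaling 583 rose, and with library sizes that leave out RN45S 560 rose. MXD3, a MAX-binding repressor, was at 3.90, 5.55 and 6.84 RPKM in siB/siM and 2.71 and 1.85 RPKM in siNS (0.96 ± 0.18, adjusted p = 0.00494). TCF3, an E-box transcription factor, was at 17.6, 17.7 and 17.6 RPKM in siB/siM and 11.2 and 10.1 RPKM in siNS (0.68 ± 0.06, adjusted p = 0.000121). Other rises were in LRFN4 (0.79), a synaptic adhesion protein, and TBL3 (0.75), a factor of ribosomal RNA processing. Past the level filter of 5 RPKM, and with small RNAs set apart, the largest fall was in RN45S, the precursor of ribosomal RNA, at 2462, 2004 and 3009 RPKM in siB/siM, against 6794 and 5666 RPKM in siNS (-1.34 ± 0.15, adjusted p = 0.000337). With the length of the RefSeq precursor it took 2.68 to 4.02% of the effective library size in siB/siM and 7.57 to 9.08% in siNS. Ribosomal RNA had been depleted before sequencing, and the part of that step in the difference was not tested. Next came C6orf211 (-0.74) and FAM127B (-0.52), whose call was lost without siNS library 1 or siB/siM library 1 or 3 (highest adjusted p = 0.208) or with a pseudocount of 0.1.

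Whether the authors' library sizes include the RN45S reads is not given in the sources used here. If they do, every other RPKM is scaled by a different remainder in each group. With library sizes that leave out RN45S, 2838 genes rose and 2732 fell, and the median change moved by -0.07. The lists of small rises depend on this. Of 38 measured cytosolic ribosomal protein genes 27 rose and 0 fell, with a median of 0.23, and 28 of the 38 had values in this block alone. RPL8 was at 847, 917 and 949 RPKM in siB/siM and 651 and 711 RPKM in siNS (0.41 ± 0.07, adjusted p = 0.00319), and RPS2 was at 424, 454 and 458 RPKM in siB/siM and 336 and 349 RPKM in siNS (0.38 ± 0.06), a call lost with quantile scaling (adjusted p = 0.0618). These are the members with large rises, and most of the rest differed by about the median of all genes. The number that rose was 11 with sizes that leave out RN45S, 5 with quantile scaling, 6 without siNS library 1 and 15 without siB/siM library 2. RPS27, which the list does not hold, fell (-0.51). Of 18 measured proteasome subunits 12 rose and 2 fell (median 0.21), with 3 rising under quantile scaling, 6 without siNS library 2 and 5 without siNS library 1 or with sizes that leave out RN45S. No subunit was called lower without siNS library 1 or 2 or siB/siM library 2 or 3. PSMC3, an ATPase of the proteasome base, was at 310.5, 318 and 310.2 RPKM in siB/siM and 229 and 250.3 RPKM in siNS (0.39 ± 0.06, adjusted p = 0.002).

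Among genes that act on splicing, 24 of 30 measured rose and 3 fell, namely MBNL1, MBNL2 and PTBP3 (-0.36). With quantile scaling 12 rose, and without siNS library 1, 14 rose. SRSF2, a serine-arginine-rich factor, was at 43.2, 43.6 and 44.3 RPKM in siB/siM and 27.6 and 29.6 RPKM in siNS (0.59 ± 0.06, adjusted p = 0.000161). PTBP1, the polypyrimidine tract binding repressor of exons, was at 129.7, 138 and 138 RPKM in siB/siM and 96.9 and 95.3 RPKM in siNS (0.49 ± 0.06, adjusted p = 0.000452). Among the corepressors that BCL11A binds, 9 of 12 measured rose and 1, SIN3B, fell (-0.73), but the rises were small (GATAD2A 0.60, MBD3 0.58, DNMT1 0.51) and numbered 4 without siNS library 1, 5 without siNS library 2 and 3 with quantile scaling.

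The authors' list holds 146 cassette exons in 146 genes, each with 1 inclusion level (the fraction of transcripts that carry the exon) for siB/siM and 1 for siNS. The libraries of a group had been combined, so there is no replicate spread, the depth is unknown and no test is given. The list was made by the authors on these samples, and the smallest difference in it is 0.10. In siB/siM 98 exons were included less and 48 more, with a median inclusion of 0.354 in siB/siM and 0.525 in siNS. The largest drop was in NBPF3, at 0.220 in siB/siM and 0.750 in siNS, followed by ARHGEF10L, at 0.287 in siB/siM and 0.788 in siNS. The largest gain was in SENP7, a SUMO protease, at 0.804 in siB/siM and 0.359 in siNS.

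The median length was 83.5 bases for exons included less and 124.5 bases for exons included more. A length that is a multiple of 3 was found in 71 of the 98 exons included less (72.4%) and in 22 of the 48 included more (45.8%). The share was 39.6% for all 94863 internal coding exons of principal transcripts in GENCODE 29. That set is unlike the list, since it holds only exons whole in coding sequence and is not limited to cassette exons. Of the listed exons 63 of the 98 and 24 of the 48 were found to lie whole in coding sequence. Of the 39 exons of at most 60 bases 34 were included less and 5 more, and 33 of the 39 kept the frame. A match by exon and flanking intron lengths placed 127 of the 146 on GRCh38. The exons below were chosen after their values were seen, for the known role of the gene as well as the size of the change, and are not all of the largest changes. They stand with those included less first and those included more after, printed 5′ to 3′ on the transcribed strand, with MBNL-type tetramers, which have GC between a pair of pyrimidines (TGCT is an example), in capitals.
ARHGEF10L exon, chr1:17634548-17634562, plus strand: gccTGCCaaccacag
NAV2 exon, chr11:20051289-20051333, plus strand: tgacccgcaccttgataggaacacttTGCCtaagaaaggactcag
MAP3K9 exon, chr14:70735961-70736029, minus strand: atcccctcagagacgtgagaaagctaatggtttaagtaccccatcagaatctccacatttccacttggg
MAP2K7 exon, chr19:7905808-7905855, plus strand: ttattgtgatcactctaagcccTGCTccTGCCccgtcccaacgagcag
ATG16L1 exon, chr2:233273721-233273777, plus strand: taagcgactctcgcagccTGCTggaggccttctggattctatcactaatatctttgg
SOS1 exon, chr2:38989270-38989314, minus strand: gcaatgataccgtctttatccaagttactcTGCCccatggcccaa
SPTAN1 exon, chr9:128592983-128593042, plus strand: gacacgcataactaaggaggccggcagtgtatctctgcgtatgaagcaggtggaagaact
PTBP1 exon, chr19:805513-805569, plus strand: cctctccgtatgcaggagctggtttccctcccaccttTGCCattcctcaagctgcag
FOXM1 exon, chr12:2865355-2865399, minus strand: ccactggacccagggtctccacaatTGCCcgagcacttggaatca
NUMB exon, chr14:73279281-73279424, minus strand: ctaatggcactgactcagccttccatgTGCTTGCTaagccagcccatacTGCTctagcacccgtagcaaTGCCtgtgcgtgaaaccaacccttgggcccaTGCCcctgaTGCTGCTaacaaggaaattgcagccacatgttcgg
SYNRG exon, chr17:37520179-37520214, minus strand: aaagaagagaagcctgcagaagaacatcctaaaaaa
TMEM241 exon, chr18:23399566-23399647, minus strand: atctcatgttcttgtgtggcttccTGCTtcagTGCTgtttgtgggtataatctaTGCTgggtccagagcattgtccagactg
SENP7 exon, chr3:101398861-101399055, minus strand: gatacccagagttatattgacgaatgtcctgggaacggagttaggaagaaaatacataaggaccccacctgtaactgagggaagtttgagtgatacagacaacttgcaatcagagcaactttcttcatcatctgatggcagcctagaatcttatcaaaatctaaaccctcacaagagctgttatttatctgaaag
Only exons that lie whole in coding sequence of the matched transcript were open to printing, so that trait follows from the choice. Of the 146 exons 87 lie whole in coding sequence, and 71 of these 87 have a length that is a multiple of 3. Each printed exon except TMEM241 has such a length. At least 1 tetramer was found in 62 of 86 exons included less (72.1%) and 30 of 41 included more (73.2%) for which a sequence was at hand, and in 76.3% of all internal coding exons. Among exons of at most 60 bases the shares were 15 of 33 included less (45.5%), 1 of 4 included more and 38.9% of all. As for length, the set of all internal exons holds only exons whole in coding sequence, unlike the listed exons. The search covers the exon itself and not the flanking introns, which were not analysed here.

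**Figure D5:**
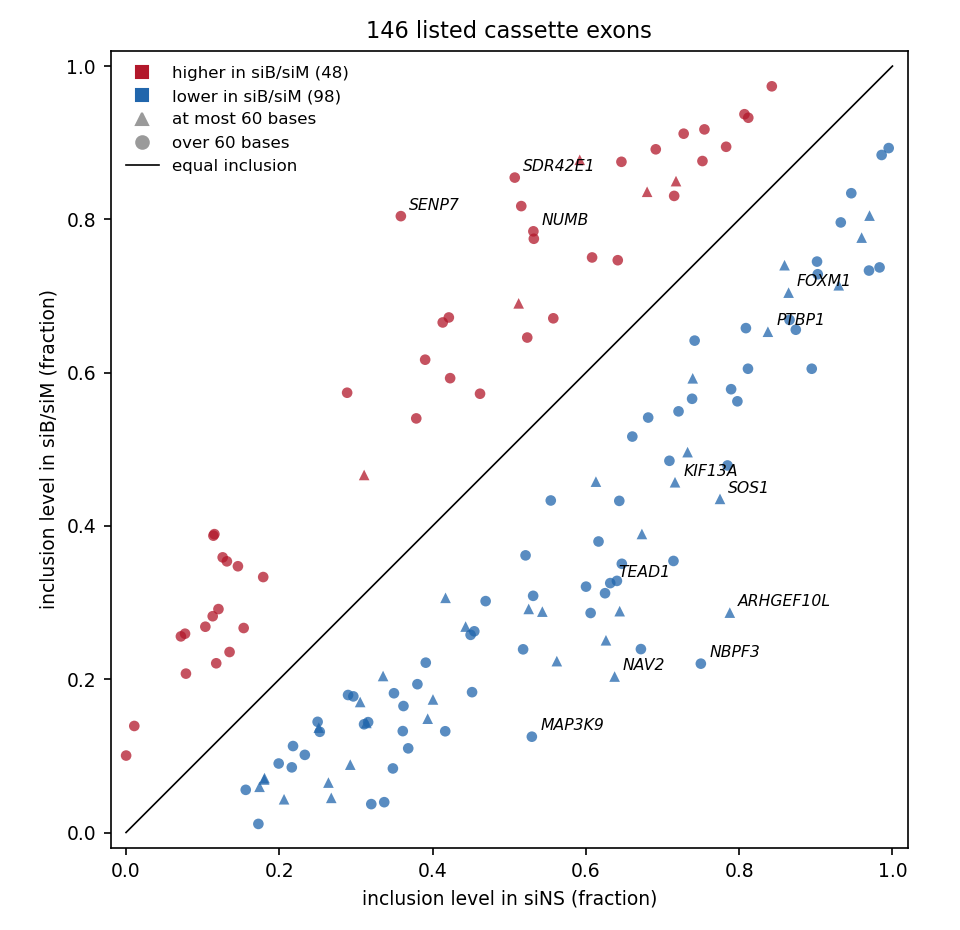
Inclusion level in siB/siM (vertical axis) against siNS (horizontal axis) for the 146 listed exons, each point an exon with 1 value per group. Below the diagonal lie the 98 exons included less, and the empty band along it reflects the smallest listed difference of 0.10.

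The genes with these exons include signalling proteins. MAP2K7, the JNK kinase, had its 48-base exon at 0.251 in siB/siM and 0.626 in siNS. MAP3K9, a kinase further up in the same cascade, had its 69-base exon at 0.125 in siB/siM and 0.530 in siNS. SOS1, the RAS exchange factor, had its exon at 0.435 in siB/siM and 0.775 in siNS. All lost inclusion. So did NAV2, a neuron navigator protein (0.204 in siB/siM, 0.638 in siNS), ATG16L1, a core autophagy protein (0.289 in siB/siM, 0.644 in siNS), and SPTAN1, the alpha II spectrin (0.224 in siB/siM, 0.562 in siNS). Gains were seen in SDR42E1 (0.855 in siB/siM, 0.507 in siNS), TMEM241 (0.817 in siB/siM, 0.516 in siNS), SYNRG, a clathrin adaptor partner (0.878 in siB/siM, 0.592 in siNS), and PRKAR1A, a regulatory subunit of protein kinase A (0.574 in siB/siM, 0.289 in siNS).

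Of 35 genes known for MBNL-dependent exons 13 have an exon in the list, 12 of them included less, beside 98 of all 146 exons. These 35 genes were chosen with earlier results of these data known, so the count is no test of MBNL1 action. NUMB, the NOTCH antagonist, is the exception, at 0.784 in siB/siM and 0.532 in siNS, and its exon has 7 tetramers in 144 bases. TEAD1 had its 63-base exon at 0.325 in siB/siM and 0.632 in siNS while its RNA rose (1.18, given above). The exon of the adhesion receptor GPR116 was at 0.0112 in siB/siM and 0.173 in siNS, and its RNA fell (-1.83). These are the only listed exons in genes whose RNA changed by at least 1 on the log2 scale. Of the 146 genes 65 have no RNA value, and 38 were higher, 33 lower and 10 not called. Some of the genes described above are on the list. PTBP1 had its exon, which encodes part of a linker between RNA-binding domains, at 0.653 in siB/siM and 0.838 in siNS. FOXM1 had its exon at 0.704 in siB/siM and 0.865 in siNS, and MTA1, a NuRD subunit, at 0.496 in siB/siM and 0.733 in siNS. TIA1, a splicing and stress granule protein, gained its exon, at 0.354 in siB/siM and 0.132 in siNS.

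Of the 146 exons 31 are also in the authors' list for siBCL11A, 51 in that for siMBNL1 and 14 in both. Those lists use the same siNS libraries, so the values are set side by side only. Exons that moved the same way in siB/siM and siBCL11A include KIAA1109 and ESYT2, and both moved that way in siMBNL1 too. KIAA1109 was at 0.605 in siB/siM, 0.623 in siBCL11A, 0.653 in siMBNL1 and 0.895 in siNS. ESYT2 was at 0.165 in siB/siM, 0.155 in siBCL11A, 0.147 in siMBNL1 and 0.362 in siNS. The exons named next lay on opposite sides of siNS in siB/siM and siBCL11A, and they do not stand for the rest. KIF13A, a kinesin, had its 39-base exon at 0.457 in siB/siM, 0.920 in siBCL11A, 0.430 in siMBNL1 and 0.716 in siNS. ITGA6, the alpha 6 integrin chain, had the exon that selects its cytoplasmic tail at 0.194 in siB/siM, 0.550 in siBCL11A, 0.202 in siMBNL1 and 0.380 in siNS. In these the combined value lay near the siMBNL1 value and on the other side of siNS from the siBCL11A value. MLLT4 (afadin) was at 0.0597 in siB/siM, 0.471 in siBCL11A and 0.174 in siNS, and the palmitoyltransferase ZDHHC7 at 0.131 in siB/siM, 0.518 in siBCL11A and 0.253 in siNS. In SEC31A, a coat protein of ER vesicles, the order was the reverse, at 0.831 in siB/siM, 0.568 in siBCL11A and 0.715 in siNS. With 1 value per group the size of these differences against replicate error cannot be given, and the single knockdowns used 100 nM of their pool against 50 nM in the combination.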

How the data were processed

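RNA-seq values of 5 libraries of MDA-MB-231 cells were used. The authors deposited gene levels as RPKM (build hg19, per the submitters' processing notes), with a log2 fold change (siNS over knockdown) and p-values of their own, and the inclusion of cassette exons as a fraction with 1 value per group, plus a score that is the difference of both fractions. Which aligner, read counter and exon caller they ran is not given in the sources used here. Their log2 values, p-values and score, as deposited, served only to find how genes and exons had been listed. The highest adjusted p of their test is 0.04998, and 23227 genes stand behind the adjustment. By that adjustment 7566 genes passed, of which 866 are not listed. The lowest mean of the higher group among the listed genes is 1.001 RPKM, so a cut on level may have applied as well.

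Groups follow the sample titles. Each gene was tested on log2(RPKM + 1) with limma 3.58.1 (R 4.3.3) in a model of 2 groups, with Benjamini-Hochberg adjustment over 23227 genes and a threshold of 0.05. All 6700 genes met a mean of 1 RPKM in a group. With 3 against 2 libraries an exact 2-sided rank-sum test cannot go below p = 0.2, so single genes rest on limma's shared variance. That variance was learned from the listed genes alone, which had already passed the authors' test on these libraries. The standard errors and p-values may therefore be too small, and by how much was not tested. The script was tested on simulated data. Effective library sizes were found from short RNAs, whose values are whole multiples of 1 read (tolerance 0.05 reads); intervals from them would cover counting error only.

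The members and the 45 gene lists were chosen with earlier results of these data known. Genes named are the targets, the 15 largest rises and falls, and the 10 largest each way with values in this block alone. Both sets of largest changes were taken from called genes whose libraries did not overlap and whose higher group averaged at least 5 RPKM. Up to 6 members per list with the largest change and all 9 stress genes of this block alone are named too. Other genes are named for their role and were chosen after their values were seen. Some genes that this rule gives are not reported here. Exons were placed on GRCh38 (GENCODE 29) by exon and intron lengths, since their coordinates are hg19. Alternatives tried were other pseudocounts, filters, scalings and variance settings, a replicate block, a model of all 4 groups and leaving out each library. Library sizes without RN45S were added after seeing the data.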

Additional observations from a re-analysis of the deposited data

How the results depend on the processing

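Among the 307 genes that the naming rule gave, no called gene reversed direction under any alternative run that held it. Changes of sign in genes that were not called were not counted, and the run with a filter of 5 RPKM held 267 of the 307. Of the gene lists, cell motility and actin had 8 rises and 6 falls among 18 measured genes, but 7 rises and 8 falls with quantile scaling or with library sizes that leave out RN45S. Of 16 apoptosis regulators 6 rose and 7 fell, but with each library left out in turn 6 to 7 rose and 3 to 7 fell. The genes called, 3546 higher and 2471 lower, stayed within 1.5 times of these counts throughout. With each library left out in turn 2540 to 3223 were higher and 1892 to 2245 lower, with a log2 change of at least 1 132 to 163 higher and 204 to 222 lower, and MBNL1 changed by -1.286 to -1.233. With a pseudocount of 0.1 the genes past a log2 change of 1 numbered 295 higher and 421 lower, because low levels are shrunk less. Exons with an inclusion difference of at least 0.2 numbered 46 lower and 17 higher, and of at least 0.3, 15 lower and 3 higher. Scaling moved the split of the calls, with 3128 higher and 2676 lower after centring and 2788 higher and 2574 lower after quantile scaling. Of the 307 genes, 28 lost their call without siNS library 1, 20 without siNS library 2, 7, 10 and 15 without siB/siM libraries 1, 2 and 3, 14 under quantile scaling and 11 with a pseudocount of 0.1. Libraries share replicate numbers, and the deviations of same-numbered libraries correlated with r = -0.017 and -0.031 across genes. Both values rest on the same difference between the 2 siNS libraries. They show no sign of a pairing by number but cannot tell whether same-numbered libraries were prepared together. With the replicate block on numbers 1 and 2, 3270 genes were higher and 2274 lower, and the block ended 6 calls of named genes. Depth limits genes of a few RPKM most in siNS library 1, and exon values have unknown depth and no replicate error.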

Other observations

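Cholesterol and fatty acid genes moved in both directions in siB/siM. Of 15 measured cholesterol synthesis genes 9 fell and 6 rose, or 2 without siNS library 1. The sterol sensors INSIG2 (-0.78) and INSIG1 (-0.62) and the enzyme SQLE (-0.54) fell, while the synthase HMGCS1 (0.39) rose. Of 11 fatty acid genes the desaturases FADS2 (-0.94) and SCD (-0.37) fell, and the acyl-CoA synthetases ACSL1 (0.73) and ACSL4 (0.71) and the synthase FASN (0.43) rose. In the NOTCH pathway the receptor NOTCH1 (0.80) and the ligand JAG2 (0.67) rose among 7 measured genes.

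Genes of the machinery that siRNAs use also had values. XPO5, the exporter of microRNA precursors, rose (0.69), DICER1, which cuts them, fell (-0.35), and TNRC6B, a silencing partner of Argonaute, fell (-0.52). EIF2C1, the Argonaute 1 gene, fell (-0.27), a call lost without siNS library 2 (adjusted p = 0.057).

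Small nucleolar RNAs varied widely between libraries. SNORA53, which guides pseudouridylation, was at 3.32, 3.30 and 2.72 RPKM in siB/siM, against 31.9 and 10.4 RPKM in siNS (-2.24 ± 0.35, limma, adjusted p = 0.00171), a call lost with a variance prior that follows the level (adjusted p = 0.072). SNORA22 was at 4.28, 2.74 and 3.92 RPKM in siB/siM, against 12.3 and 13.2 RPKM in siNS (-1.58 ± 0.13), and SNORA54 at 10.9, 9.45 and 11.1 RPKM in siB/siM, against 33.3 and 26.9 RPKM in siNS (-1.43 ± 0.10). MIR3648 (1.70) was called higher, a call lost without siNS library 2 or with that prior (highest adjusted p = 0.171). SNORD81 (1.47) was called higher, a call lost without either siNS library or without siB/siM library 1 or 3, with that prior or with a pseudocount of 0.1 (highest adjusted p = 0.298). SNORA65 (1.03) was called higher, a call lost without siNS library 1, with that prior or with a pseudocount of 0.1 (highest adjusted p = 0.18).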
